A study of Mus musculus with 10 samples.

Results

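The 10 genes described here encode the αβ T cell receptor and its coreceptors: the receptor constant genes *Trac*, *Trbc1* and *Trbc2*, the CD3 chains *Cd3g*, *Cd3d* and *Cd3e*, the ζ chain *Cd247*, and the coreceptor chains *Cd4*, *Cd8a* and *Cd8b1*. They were taken by name from the 29268 genes listed in the data, and all 10 were listed. Uterine RNA was sequenced from 5 HSD17B1TG and 5 WT females aged 4 months, and each mouse gave 1 library. HSD17B1TG mice are FVB/N mice, heterozygous for a human *HSD17B1* cDNA that is driven in all tissues by the chicken beta actin promoter with a CMV enhancer, and HSD17B1 is the enzyme that makes estradiol from estrone. WT mice lack the transgene. The transgene acts in every tissue of the mouse, HSD17B1TG females do not cycle, and the methods give random cycle phases for the WT uteri used in histology. The phase of the sequenced WT mice is not given in the sources used here, so genotype and cycle phase cannot be told apart.

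A T cell recognises a peptide on an MHC molecule through an α and a β chain, each assembled from variable and joining segments that are spliced to a constant gene. These chains do not signal by themselves. CD3γ, CD3δ, CD3ε and the ζ chain carry the tyrosine motifs that the kinase LCK phosphorylates, and ZAP70 and LAT pass the signal on. CD4 binds MHC class II and CD8 binds MHC class I. In the mouse uterus, natural killer (NK) cells are common lymphocytes, αβ and γδ T cells are also present, and NK cells use the ζ chain with receptors of their own. A constant gene can also be transcribed from a locus that has not been rearranged, so a read on it does not by itself mark a complete receptor.

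The libraries held 14817228 to 23271988 counts each, and 3 counts in the library with the lowest total equal 0.202 CPM (counting error only). Of the 16 uterus marker genes, *Hoxa13* was at 0 in all WT mice, and the 16 together summed to 2675 to 6365 FPKM in HSD17B1TG and 1990 to 5653 FPKM in WT. Mitochondrial genes took 1.94% to 7.57% of the counts in HSD17B1TG and 2.58% to 3.37% in WT. WT mouse 4 stood apart from the other WT mice in smooth muscle and epithelial markers: *Acta2* was at 2586 FPKM against 173 to 852, *Myh11* at 636 against 29.8 to 189, and *Epcam* at 240 against 63.1 to 152. HSD17B1TG mouse 1 stood apart from its group in the same markers, with *Acta2* at 3526 FPKM against 432 to 1429, *Myh11* at 948 against 108 to 434, and *Epcam* at 110 against 229 to 499. WT mouse 4 lay nearest to the HSD17B1TG mice in several of the genes below, and HSD17B1TG mouse 1 was the highest of its group for *Trac*, *Trbc2*, *Cd3e*, *Cd247*, *Cd8a* and *Cd8b1*. The part of the tissue makeup, of these or of the other mice, in the values below was not tested.

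*Trbc1* and *Trbc2* are neighbouring genes on the plus strand of chromosome 6 (GRCm38), at chr6:41538218-41539881 and chr6:41546730-41548352. They encode almost the same β constant region, so how far a read can be placed in 1 of them bears on the values that follow. In the reference transcripts their coding parts were both 518 bases long and differed at 23 bases, with 95.6% identity. Of these differences, 22 lay in the last 150 bases, which cover exons 1 to 4 and are shown here 5′ to 3′ with the differing bases in capitals.
Trbc1: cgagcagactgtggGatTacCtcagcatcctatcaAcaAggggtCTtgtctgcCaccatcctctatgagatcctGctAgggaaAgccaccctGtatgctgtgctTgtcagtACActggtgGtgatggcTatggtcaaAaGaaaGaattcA
Trbc2: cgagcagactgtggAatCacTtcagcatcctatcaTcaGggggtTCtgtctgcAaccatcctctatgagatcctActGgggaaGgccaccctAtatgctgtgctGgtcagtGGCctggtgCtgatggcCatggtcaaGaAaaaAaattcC
The longest stretch without a difference was 259 bases. Of the 588 windows of 150 bases in the *Trbc1* transcript, the length of 1 read, 110 (18.7%) also occurred in *Trbc2* and the others did not. *Trac*, at chr14:54220521-54224206, shared 0 windows of 50 bases with *Trbc1*. How the counting treated reads with several matches is not given in the sources used here.

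Of the 10 genes, *Trbc1* was lower in HSD17B1TG in the test across all genes, and the other 9 did not pass or could not be tested. In that edgeR quasi-likelihood test, 7 genes had enough counts, and 1 of these 7 passed an adjusted p of 0.05 while 6.16% of the 16993 genes tested did so in either direction. The 7 genes did not shift together: 5 had a negative and 2 a positive log2 fold change, with a median of -0.61 against 0.0021 over all genes tested. With the fold change and expression thresholds of the study added, *Trbc1* still passed, as did 4.24% of all genes tested. *Cd3e*, *Cd8a* and *Cd8b1* had too few counts for the test. Values in bulk tissue cannot tell fewer cells of a type from less RNA per cell. The summed counts of all 10 genes came to 5.97 to 18.4 CPM in HSD17B1TG and 7.10 to 24.7 CPM in WT.

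**Figure D1:**
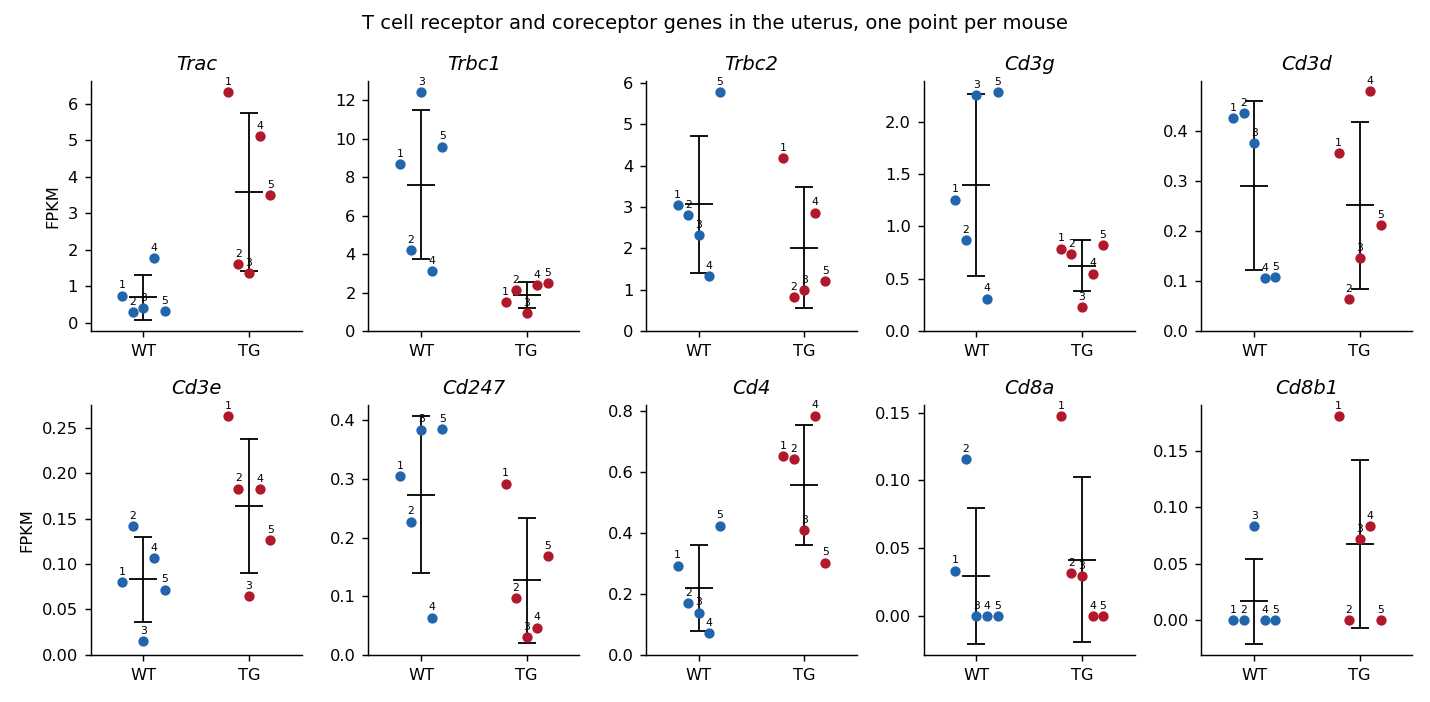
FPKM of the 10 genes in WT and HSD17B1TG (TG) uteri, 1 point per mouse with the mouse number beside it, each panel with its own linear axis. Horizontal bars are the mean and whiskers the SD (n = 5); the groups are apart only for *Trbc1*, and WT mouse 4 is the highest WT mouse for *Trac* and the lowest for *Trbc1*, *Trbc2*, *Cd3g*, *Cd247* and *Cd4*.

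*Trbc1*, the first β constant gene, had 1.5, 2.15, 0.922, 2.40 and 2.49 FPKM in HSD17B1TG mice 1 to 5 and 8.69, 4.22, 12.4, 3.10 and 9.58 FPKM in WT mice 1 to 5. Every HSD17B1TG mouse lay below every WT mouse, with WT mouse 4 nearest to them, and this was the only one of the 10 genes with groups that did not overlap (6.69% of all genes tested). The means were 1.89 ± 0.665 and 7.60 ± 3.87 FPKM (SD, n = 5). *Trbc1* fell by 2.01 on the log2 scale (SE 0.44), with an adjusted p of 0.0336 in edgeR. An exact permutation test on log2(FPKM + 0.1), two-sided over all 252 assignments of the mice, gave p = 0.00794, the smallest value that this design allows. The call depended on the mice included: it was kept when HSD17B1TG mouse 1, HSD17B1TG mouse 3 or WT mouse 4 was left out and lost when any of the other 7 was (edgeR log2 fold change -2.21 to -1.78, adjusted p 0.00958 to 0.0775).

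*Trbc2*, the second β constant gene, had 4.19, 0.831, 0.998, 2.87 and 1.21 FPKM in HSD17B1TG and 3.06, 2.81, 2.33, 1.33 and 5.79 FPKM in WT. HSD17B1TG mice 1 and 4 lay inside the WT range, so the groups overlapped. The log2 fold change of *Trbc2* was -0.61 (SE 0.54, edgeR adjusted p = 0.512). *Trbc1* took 28% to 73.7% of the counts of both genes in HSD17B1TG and 61.9% to 85.2% in WT, and whether this share differed was not tested. With the deposited counts of both genes summed to 1 feature, so that a read counts the same in either, the log2 fold change was -1.48 with an edgeR adjusted p of 0.0574, so the call was lost.

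*Trac*, the α constant gene, had a higher mean in HSD17B1TG. It had 6.31, 1.60, 1.36, 5.11 and 3.50 FPKM in HSD17B1TG and 0.740, 0.281, 0.398, 1.76 and 0.313 FPKM in WT. WT mouse 4 lay above HSD17B1TG mice 2 and 3, and the other 4 WT mice lay below every HSD17B1TG mouse. The means of 3.58 ± 2.16 and 0.699 ± 0.621 FPKM (SD, n = 5) differed 5.12-fold. The log2 fold change of *Trac* was 2.34 (SE 0.63), which missed the threshold in edgeR (adjusted p = 0.0514) and passed in DESeq2 (adjusted p = 0.00307), where 12.9% of genes passed. The exact permutation test on log2(FPKM + 0.1) gave p = 0.0238. HSD17B1TG mice 1, 4 and 5, with the highest *Trac*, were also those with the highest mitochondrial shares (5.74%, 6.87% and 7.57%), against 1.94% and 2.49% in HSD17B1TG mice 2 and 3. Among the WT mice the share was 3.37% in mouse 4 and 2.58% to 3.35% in the others. The part of this share in the *Trac* values was not tested, and with mitochondrial genes left out the log2 fold change was 2.31 (edgeR adjusted p = 0.0548). Without WT mouse 4 the log2 fold change was 3.01 and the edgeR adjusted p 0.0125, without HSD17B1TG mouse 1 they were 2.03 and 0.0640, and without any 1 mouse the adjusted p lay between 0.0125 and 0.121.

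Within a mouse, the ratio of *Trac* to summed *Trbc1* and *Trbc2* FPKM was 0.536 to 1.11 in HSD17B1TG and 0.0204 to 0.397 in WT, with WT mouse 4 at 0.397. The ratio was computed after the values were seen and was not tested. In WT the β constant RNA thus stood above the α constant RNA per unit of length in every mouse, while in HSD17B1TG mouse 1 the α constant RNA was the higher one.

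**Figure D2:**
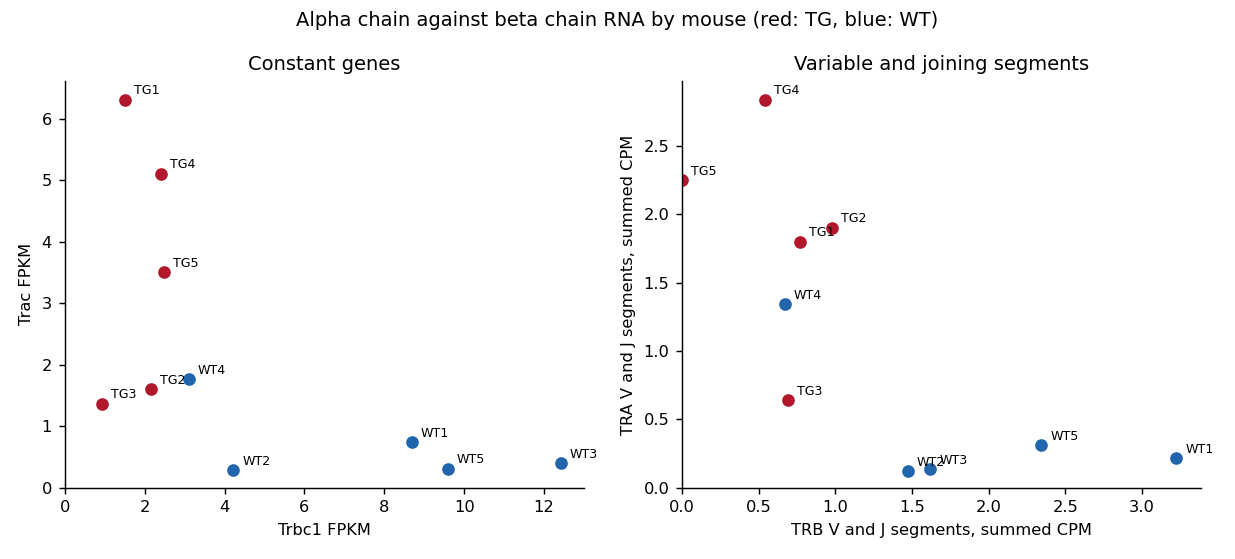
Left, *Trac* FPKM against *Trbc1* FPKM; right, summed CPM of the TRA variable and joining segments against those of the TRB segments; 1 point per mouse, red for HSD17B1TG (TG) and blue for WT, on linear axes. WT mice 1, 2, 3 and 5 lie along the bottom of both panels, HSD17B1TG mice 1, 4 and 5 lie high on the left, and HSD17B1TG mouse 3 lies low on the left, below WT mouse 4.

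The segments gave a readout apart from the constant genes. The 26 TRA segments listed (4 variable, 22 joining) held 170 counts in HSD17B1TG and 43 in WT. By mouse these were 35, 35, 12, 47 and 41 counts in HSD17B1TG and 5, 2, 2, 28 and 6 in WT. WT mouse 4 lay above HSD17B1TG mouse 3, and the other WT mice lay below all HSD17B1TG mice. As CPM the sums were 1.89 ± 0.807 in HSD17B1TG against 0.426 ± 0.518 in WT (SD, n = 5). They differed by 2.19 on the log2(CPM + 0.1) scale (two-sided exact permutation test, p = 0.0159, adjusted over both segment tests 0.0317). Of the 26 variable and joining segments, 25 had a read in some HSD17B1TG mouse and 12 in some WT mouse. These numbers cannot show a difference in spread over segments. The HSD17B1TG mice held more of the reads, and every segment listed had a read in some mouse. *Traj44* had the most, with 57 counts, of which HSD17B1TG mice 1 and 4 held 26 and 19.

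The 11 TRB segments listed held fewer reads in HSD17B1TG, as *Trbc1* did. They had 15, 18, 13, 9 and 0 counts in HSD17B1TG and 75, 24, 24, 14 and 45 in WT. The sums were 0.597 ± 0.369 and 1.87 ± 0.963 CPM (SD, n = 5), a log2 difference of -1.69 (two-sided exact permutation test, p = 0.0317, adjusted 0.0317). WT mouse 4, at 0.672 CPM, lay among the HSD17B1TG mice. The joining segments fall into clusters that each precede 1 constant gene. The 7 segments of the first cluster, which end 2531 bases before *Trbc1*, held 46 counts in HSD17B1TG and 178 in WT, while the 2 listed segments of the second cluster, before *Trbc2*, held 3 and 4. The 2 TRB variable segments listed, *Trbv1* and *Trbv29*, held 6 counts in HSD17B1TG and 0 in WT. The TRA variable segments held 18 and 5 counts. Most segment reads were therefore on joining segments, and counts on a joining segment do not tell a rearranged from an unrearranged transcript. Both segment tests missed an adjusted p of 0.05 when some mice were left out (0.0159 to 0.0556 for TRA, 0.0159 to 0.0794 for TRB).

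The CD3 genes lie together on chromosome 9, with *Cd3g* (chr9:44969572-44980431, minus strand) and *Cd3d* (chr9:44981786-44987339, plus strand) 1355 bases apart. *Cd3g*, the γ chain, had 0.788, 0.739, 0.228, 0.550 and 0.825 FPKM in HSD17B1TG and 1.26, 0.870, 2.26, 0.311 and 2.29 FPKM in WT. All but WT mouse 4 of the WT mice lay above every HSD17B1TG mouse. Its log2 fold change was -1.16 (SE 0.54), which did not pass (edgeR adjusted p = 0.199), and the exact permutation test gave p = 0.135. Without WT mouse 4 the permutation p of *Cd3g* was 0.00794, and in the other 9 fits without 1 mouse it did not pass. *Cd3d*, the δ chain, ranged from 0.0633 to 0.478 FPKM in HSD17B1TG and from 0.107 to 0.435 FPKM in WT, and its log2 fold change of -0.21 (SE 0.60, edgeR adjusted p = 0.855) turned to 0.032 without HSD17B1TG mouse 2.

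*Cd3e* (chr9:44998740-45009627, minus strand), the ε chain on which complete CD3 assembly depends, had 20, 13, 5, 12 and 8 counts in HSD17B1TG and 8, 11, 1, 9 and 6 in WT. The groups overlapped, and the lowest mouse was WT mouse 3. Its FPKM were 0.164 ± 0.0737 and 0.0831 ± 0.0468 (SD, n = 5; exact permutation test, p = 0.0873). An antisense gene, *Gm48719*, and a gene on the same strand, *Gm48720*, overlap it, and reads in the shared regions cannot be told apart with the strand setting unknown. *Cd247* on chromosome 1, the ζ chain, had 0.292, 0.0971, 0.0299, 0.0466 and 0.169 FPKM in HSD17B1TG and 0.305, 0.227, 0.384, 0.0636 and 0.385 in WT. Apart from HSD17B1TG mouse 1 and WT mouse 4, the HSD17B1TG mice lay below the WT mice. The log2 fold change of *Cd247* was -1.10 (SE 0.64, edgeR adjusted p = 0.306; exact permutation test, p = 0.0952). The gene overlaps *Pou2f1* on the opposite strand.

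None of the CD3 and ζ chain genes passed a test by itself, and ratios between genes within a mouse were compared next. The ratio of *Cd247* to *Cd3e* FPKM within a mouse was lower by 1.26 on the log2 scale, with an exact permutation p of 0.0317 that did not pass after adjustment over the 5 ratios examined (0.0794). The ratio of *Cd3e* to *Ptprc*, the CD45 gene of all leucocytes, was higher by 1.44 and did not pass either (exact permutation p = 0.0238, adjusted 0.0794). The log2 differences of the other ratios were -0.99 for *Cd8a* to *Cd4*, 0.57 for *Cd4* to *Cd3e* and -0.34 for *Cd8a* to *Cd8b1*. Their exact permutation p-values after adjustment were 0.106, 0.228 and 0.349. *Cd8a*, *Cd8b1* and *Cd3e* had group means near or under the pseudocount of 0.1 FPKM, so the size of these differences depends on it. Over alternative settings, other pseudocounts among them, they ranged from -1.01 to -0.34, from 0.25 to 0.57 and from -1.01 to -0.052 in the same order.

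*Cd4*, on chromosome 6, encodes the coreceptor for MHC class II and is also transcribed in some macrophages and dendritic cells. It had 0.652, 0.642, 0.409, 0.784 and 0.303 FPKM in HSD17B1TG and 0.293, 0.170, 0.138, 0.0721 and 0.424 FPKM in WT. HSD17B1TG mice 3 and 5 lay below WT mouse 5, and otherwise the HSD17B1TG mice were the higher ones. The means were 0.558 ± 0.197 and 0.219 ± 0.140 FPKM (SD, n = 5), and the log2 fold change of *Cd4* was 1.33 (SE 0.48). It did not pass in edgeR (adjusted p = 0.109) and passed in DESeq2 (adjusted p = 0.0450), and the exact permutation test gave p = 0.0317.

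CD8 RNA was close to the limit of detection in both groups. *Cd8a* had 14 counts over the 5 HSD17B1TG mice, 10 of them in mouse 1, and 11 counts over the 5 WT mice, 8 of them in mouse 2. *Cd8b1*, the β chain of CD8 on αβ T cells, had 9 counts in HSD17B1TG, 5 of them in mouse 1, and 2 in WT, both in mouse 3. Reads of *Cd8a* were absent from 2 HSD17B1TG and 3 WT mice and reads of *Cd8b1* from 2 and 4. No difference in CD8 RNA was detectable at this depth.

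**Figure D3:**
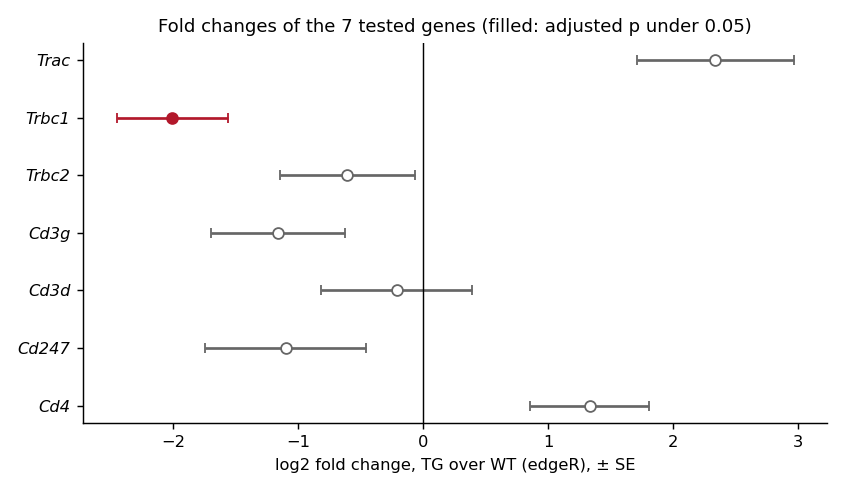
log2 fold change of HSD17B1TG (TG) over WT with its standard error for the 7 genes with enough counts, from edgeR on 5 mice per group. The filled point, *Trbc1*, is the only one with an adjusted p under 0.05, while *Trac* at 2.34 and *Cd4* at 1.33 lie on the positive side.

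The genes that carry the signal of the receptor did not move as a block. Of 29 signalling genes tested, 2 rose, 2 fell and 25 did not pass, with a median log2 fold change of -0.14 (over all genes tested, 3.34% rose and 2.81% fell). With 1 mouse left out, 1 to 8 of the 29 passed. With the study's thresholds 1 passed, and in DESeq2 10 passed. *Skap1* and the other gene that fell missed the expression threshold of the study, and *Dgka* missed its fold change threshold. At an unadjusted p under 0.05 in edgeR, 14 of the 29 signalling genes passed, as did 26.1% of all genes tested. That share was 15 of 18 in the NK, 7 of 10 in the pan leucocyte, 7 of 9 in the MHC class I, 7 of 15 in the homing and 4 of 9 in the chemokine list described below. *Lck*, the kinase bound to the coreceptors, had a log2 fold change of -0.86 (SE 0.28, edgeR adjusted p = 0.0840), and *Zap70*, which binds the phosphorylated chains, of -1.32 (SE 0.47, adjusted p = 0.110). *Lat*, the membrane adaptor below ZAP70, was at 0.627 ± 0.254 FPKM in HSD17B1TG and 0.548 ± 0.191 FPKM in WT (SD, n = 5; edgeR adjusted p = 0.801). *Skap1*, an adaptor that links the receptor to integrins, fell by 2.06 (SE 0.49, edgeR adjusted p = 0.0390), from 0.253 to 0.674 FPKM in WT to 0.0416 to 0.247 FPKM in HSD17B1TG. The genes that rose are not restricted to T cells: *Vav1*, a guanine nucleotide exchange factor of blood cells, by 1.85 (SE 0.30, adjusted p = 0.0177 in edgeR), and *Dgka*, a diacylglycerol kinase that dampens receptor signalling, by 0.94 (SE 0.22, adjusted p = 0.0364).

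Of 9 costimulation and checkpoint genes tested, 2 fell and none rose in edgeR, with a median of -0.56 (2.81% of all genes tested fell), and 5 of the 9 had an unadjusted p under 0.05 (26.1% of all genes tested). With 1 mouse left out, 0 to 3 passed. *Tigit*, an inhibitory receptor of T and NK cells, was at 0 to 0.250 FPKM in HSD17B1TG and 0.685 to 3.29 FPKM in WT (log2 fold change -3.47, SE 0.63, edgeR adjusted p = 0.0224). *Tnfrsf9*, which encodes the costimulator 4-1BB, fell by 3.11 (SE 0.79, edgeR adjusted p = 0.0457), and *Tnfrsf4*, which encodes OX40, had a log2 fold change of 1.14 (adjusted p = 0.0896). *Cd40lg*, the CD40 ligand of helper T cells, was at 0 in all WT mice and had 6 counts in HSD17B1TG. Of 15 transcription and homing genes, 4 fell and none rose, with a median of -0.37 (2.81% of all genes tested fell). With 1 mouse left out, 0 to 6 passed. *Lef1*, a transcription factor of T cells and of other tissues, fell by 4.50 (SE 0.82, edgeR adjusted p = 0.0224). *Thy1*, a surface protein of T cells and of stromal cells, fell by 2.08 (SE 0.51, edgeR adjusted p = 0.0415) from a WT mean of 40.6 FPKM, far above that of any receptor gene. *S1pr1*, the exit receptor of lymphocytes that endothelium also carries, fell by 1.20 (SE 0.30, adjusted p = 0.0440). *Foxp3*, the factor of regulatory T cells, was too low for the test, with 13 counts in HSD17B1TG and 18 in WT.

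Neither of the γδ constant genes tested passed in edgeR. *Trdc*, the δ constant gene, lay at 0.332 to 0.597 FPKM in HSD17B1TG and 0.288 to 1.28 FPKM in WT (log2 fold change -0.74, SE 0.39, edgeR adjusted p = 0.254), and *Tcrg-C1*, a γ constant gene, had a log2 fold change of 0.61 (SE 0.60, edgeR adjusted p = 0.558). The TRD variable segments held 101 counts in HSD17B1TG and 113 in WT. The 2 TRG variable segments listed held 6, 7, 1, 17 and 0 counts in HSD17B1TG mice 1 to 5 and 2, 3, 0, 0 and 0 in WT. HSD17B1TG mice 1, 2 and 4 lay above every WT mouse, and the other HSD17B1TG mice lay in the WT range. The γ and δ segments were not tested.

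Markers of NK and cytotoxic lymphocytes were lower beside *Trbc1*. All 18 markers tested had a negative log2 fold change, with a median of -2.63, and 8 of them fell at an adjusted p under 0.05 (2.81% of all genes tested did so downwards). *Prf1*, the pore protein of killer cells, was at 0.096 to 0.556 FPKM in HSD17B1TG and 1.01 to 8.25 FPKM in WT (log2 fold change -4.17, SE 0.64, edgeR adjusted p = 0.0177). *Nkg7*, a protein of cytotoxic granules, fell by 3.35 (SE 0.67, edgeR adjusted p = 0.0260), and *Gzmc*, a granzyme of uterine NK cells, had 4 counts in HSD17B1TG, all in mouse 2, and 644 in WT. The 21 markers summed to 25.1 to 48.0 FPKM in HSD17B1TG and 45.4 to 216 FPKM in WT. None of the 21 was at 0 throughout a group. WT mouse 4 had the lowest sum of the WT mice, 45.4 FPKM, as it had the lowest *Trbc1*, and WT mouse 3 had the highest of both. Left-out mice moved the number of NK markers passing between 2 and 13, from the 8 named above. The part of these cells in the lower *Trbc1* and TRB segment values, and in the *Cd247* values, was not tested.

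Leucocyte genes as a whole had no common direction. Of 10 pan leucocyte genes, 3 rose and none fell, with a median of -0.31 (3.34% of all genes tested rose). The other 7 had a negative log2 fold change and did not pass. *Vav1*, counted above among the signalling genes, is 1 of the 3, and 1 to 7 of the 10 passed when 1 mouse was left out. The 10 genes summed to 72.6 to 128 FPKM in HSD17B1TG and 56.8 to 108 FPKM in WT. These sums rest largely on *Laptm5* (means of 39.6 FPKM in HSD17B1TG and 16.2 FPKM in WT) and *Arhgdib* (27.3 and 9.43 FPKM). *Ptprc* had a log2 fold change of -1.08 (SE 0.30, edgeR adjusted p = 0.0558), while *Arhgdib* rose by 1.53 (SE 0.31, adjusted p = 0.0260) and *Laptm5*, a lysosomal protein of blood cells, by 1.28 (SE 0.28, adjusted p = 0.0312).

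**Figure D4:**
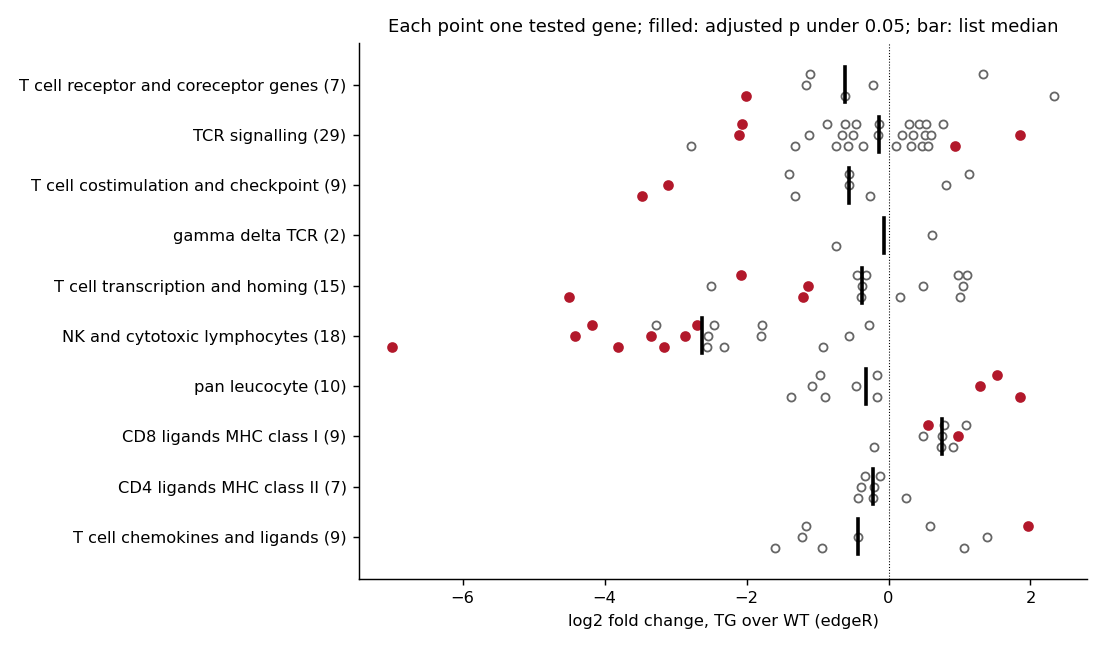
log2 fold change of HSD17B1TG (TG) over WT (edgeR) for the tested genes of each list, 1 point per gene, filled where the adjusted p is under 0.05, with a black bar at the list median and the number of genes tested in parentheses. The receptor and coreceptor genes spread from -2.01 to 2.34, whereas the NK and cytotoxic list lies on the negative side with a median of -2.63.

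The ligands of the coreceptors are MHC molecules. Of the 9 genes of MHC class I presentation, which CD8 reads, 2 rose and none fell, with a median log2 fold change of 0.75 (3.34% of all genes tested rose). With the fold change and expression thresholds of the study, 0 of the 9 passed, and 0 to 6 passed when 1 mouse was left out. *H2-D1*, a class I heavy chain, rose by 0.98 (SE 0.23, edgeR adjusted p = 0.0368), and *Tap2*, a subunit of the peptide transporter, by 0.56 (SE 0.15, adjusted p = 0.0493). *H2-K1*, the other heavy chain, had a log2 fold change of 1.09 (SE 0.34, edgeR adjusted p = 0.0757). Of the 7 genes of MHC class II presentation, which CD4 reads, none passed in edgeR in either direction, none had an unadjusted p under 0.05 and the median was -0.21. *H2-Aa*, a class II α chain, was at 8.79 ± 1.28 FPKM in HSD17B1TG and 11.8 ± 5.26 FPKM in WT (SD, n = 5; edgeR adjusted p = 0.496). Among 9 chemokine and receptor genes of T cells, *Cxcl16*, the ligand of CXCR6, rose by 1.96 (SE 0.48, edgeR adjusted p = 0.0427) and the other 8 did not pass (3.34% of all genes tested rose). With 1 mouse left out, 0 to 3 of the 9 passed. *Cx3cl1*, a chemokine bound to epithelium and endothelium, had a log2 fold change of 1.39 (edgeR adjusted p = 0.0627).

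The genes whose log2 CPM ran most like a receptor gene over the 10 mice were searched among 14311 protein-coding genes, as a description with no test. For *Cd3e* these were *Kctd4*, *Pcnx2*, *Bnc1*, *Cytl1* and *Ube2g1*, with Pearson r from 0.919 to 0.943, and 0.881 to 0.926 after the group means were removed. None of them is a known T cell gene, and *Cd3e* itself had 1 to 20 counts per mouse. For *Trbc1*, chosen after its values were seen, the nearest were *Il2rg* (r = 0.960), the common γ chain of cytokine receptors of lymphocytes, then *Rps25*, *Vgll3*, *Angptl7* and *Zbtb5*. For *Trac*, chosen in the same way, they were *Filip1l* (r = 0.976), *Hsf4*, *Fam234a*, *Zmynd15* and *Nat8f3*. With the group means removed, r for the 5 genes was 0.853 to 0.911 for *Trbc1* and 0.871 to 0.962 for *Trac*. The points of each correlation share their library and depth.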

How the data were processed

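Uterine RNA of 5 HSD17B1TG and 5 WT mice was sequenced by the authors as paired-end reads of 150 bp and mapped with HISAT2 (2.0.5, per the submitters' processing notes) to the Ensembl 94 annotation of GRCm38. The authors deposited raw counts per gene and FPKM. The median over genes of count divided by FPKM and length gave a scale for each mouse that differed from its total counts. How reads were counted, with or without strand and with which rule for reads that match several genes, is not given in the sources used here. The authors' own fold changes, p-values and term tables were not used. Samples were grouped by the labels' genotype, and the labels give neither batch nor litter. Nothing in the labels states the relation between mice of a group, so p-values measure the spread between these mice. No pair of libraries agreed within sampling noise.

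The test on counts was that of edgeR 4.0.16, run in R 4.3.3 (filterByExpr, TMM, quasi-likelihood test, Benjamini-Hochberg adjustment over 16993 genes). SE is the log2 fold change divided by the square root of F. Values of 1 gene, ratio or segment sum were compared with two-sided exact permutation tests on log2 values (pseudocount 0.1). The permutation p-values of the 10 genes were not adjusted. Alternatives were DESeq2 1.42.0, limma 3.58.1 (voom, and log2 FPKM with pseudocounts 1 and 0.1), other normalizations and filters, the study's thresholds, summed *Trbc1* and *Trbc2*, other pseudocounts and each mouse left out. A call needed an adjusted p under 0.05. The study's own thresholds also ask for a change of over 2-fold and for 1 of the group means to exceed 1 FPKM.

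The 10 genes and the lists (signalling, costimulation, γδ receptor, transcription and homing, NK, pan leucocyte, macrophage, dendritic, B cell, MHC class I and II, chemokines, uterus, red blood cell) were written by hand with earlier results of these data known. Named were the 10 genes, the 3 tested genes of each list with the smallest p, *Ptprc*, *Foxp3*, *Trdc*, *Zap70*, *Lck*, *Lat* and the 5 genes most like *Cd3e*, of which 1 list gene is not reported here. *Cd40lg*, *Hoxa13*, *Trat1*, *Themis*, *Acta2*, *Myh11*, *Epcam*, *Esr1*, *Traj44*, the TRB variable segments, the overlapping genes and the genes most like *Trbc1* and *Trac* were named after their values were seen, as was the ratio of *Trac* to the β constant genes. Gene positions are those of the deposited counts table. Sequences and overlaps are from GENCODE M21, also GRCm38, in which the coordinates of all 10 genes were the same.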

Additional observations from a re-analysis of the deposited data

Results flagged for a closer look

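In 9 of 124 groups of 5 mice, 1 mouse stood far from the other 4 (its gap to the nearest was large against the range of the group), and chance alone marks about 1 group in 20. WT mouse 4 had 1.34 CPM on TRA segments, against 0.123 to 0.312 in the other WT mice. *Cd8a* was at 0.148 FPKM in HSD17B1TG mouse 1, against 0 to 0.0316 in the others, and at 0.116 FPKM in WT mouse 2, against 0 to 0.0335. *Cd8b1* was at 0.0836 FPKM in WT mouse 3 and at 0 in the other WT mice. *Skap1* was at 0.247 FPKM and *Gzmc* at 0.257 FPKM in HSD17B1TG mouse 2, against 0.0416 to 0.0935 and 0 in the others. *Tnfrsf9* was at 0.567 FPKM in HSD17B1TG mouse 5, against 0.0911 to 0.190. *Cd68*, a lysosomal protein of macrophages, was at 25.8 FPKM in WT mouse 4, against 14.2 to 17.6 in the other WT mice. *Vav1* was at 1.15 FPKM in WT mouse 5, against 2.11 to 2.45.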

How the results depend on the processing

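Of all genes tested, 1046 passed (568 higher, 478 lower in HSD17B1TG), against 2811 in DESeq2 and 3283 in limma voom with quality weights. With no normalization factors 404 were higher and 791 lower. Of the 10 receptor genes, 1 passed, against 3 in DESeq2 and 3 in voom (*Trbc1*, *Trac* and *Cd4*), 2 in limma on log2(FPKM + 1) and 2 on log2(FPKM + 0.1), and 0 with *Trbc1* and *Trbc2* summed. The other lists together had 30 genes passing, 58 in DESeq2 and 58 in voom. When each mouse was left out in turn, 76 to 2387 genes passed, 0 to 2 of the receptor genes and 3 to 54 of the lists. *Trbc1* and a second receptor gene, *Trac*, passed without HSD17B1TG mouse 3 and without WT mouse 4. The most genes passed without WT mouse 4 and the fewest without HSD17B1TG mouse 5. The log2 difference ranged from 1.98 to 2.66 for TRA segments and from -1.99 to -1.08 for TRB segments, and that of the *Cd247* to *Cd3e* ratio from -1.58 to -0.98, passing only without WT mouse 4 (exact permutation test, adjusted p = 0.0397). With a pseudocount of 1 in place of 0.1 these differences were 1.03, -0.81 and -0.28, and with 0.01 that of the ratio was -2.20, each on the same side of the threshold. Direction turned only for genes without a call: *Cd3d* had log2 fold changes of -0.57 to 0.032 and log2 FPKM differences of -0.37 to 0.082, both positive only without HSD17B1TG mouse 2, and *Cd8a* log2 FPKM differences of -0.11, without HSD17B1TG mouse 1, to 0.31. The causes were not tested. In the settings that kept *Trbc1* and *Trbc2* apart and all mice in, *Trbc1* passed in each. Depth limits *Cd3d*, *Cd3e*, *Cd8a* and *Cd8b1*, whose counts per mouse were at most 20. No paired analysis was possible because the labels give the groups no shared replicate numbers.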

Other observations

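Genes of other blood cell types were counted in the same way. Of 10 macrophage markers, *Cd68* rose by 1.58 on the log2 scale (SE 0.32, edgeR adjusted p = 0.0269), *Mertk*, a receptor for the uptake of dead cells, fell by 1.19 (SE 0.24, adjusted p = 0.0255) and 8 did not pass (6.16% of all genes tested passed in either direction, and 0 to 2 of the 10 did when 1 mouse was left out). Of 9 dendritic cell genes, 2 rose (3.34% of all genes tested rose, and 0 to 3 of the 9 passed when 1 mouse was left out): *Siglech*, a receptor of plasmacytoid dendritic cells, by 1.78 (SE 0.39, edgeR adjusted p = 0.0322), and *Cadm1*, an adhesion molecule that epithelium also carries, by 1.25 (SE 0.29, adjusted p = 0.0380). *Zbtb46*, a factor of dendritic cells and endothelium, had a log2 fold change of -1.18 (edgeR adjusted p = 0.0528). Of 3 B cell genes tested none passed in edgeR and 1 had an unadjusted p under 0.05 (26.1% of all genes tested had one). *Cd79b*, a chain of the B cell receptor, lay at 1.69 to 6.91 FPKM in HSD17B1TG and 0.737 to 3.45 FPKM in WT (edgeR adjusted p = 0.0964). None of the 4 red blood cell genes tested passed in edgeR or had an unadjusted p under 0.05, and *Hba-a1* lay at 11.9 to 58.9 FPKM in HSD17B1TG and 18.2 to 83.9 FPKM in WT.

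Of the 15 uterus genes tested, 3 fell (2.81% of all genes tested fell, and 0 to 7 of the 15 passed when 1 mouse was left out). At an unadjusted p under 0.05 in edgeR, 9 of the 15 passed, as did 26.1% of all genes tested. *Hand2*, a stromal factor downstream of progesterone, had a log2 fold change of -1.998 (SE 0.33, edgeR adjusted p = 0.0177), *Hoxa11* of -2.36 (SE 0.43, adjusted p = 0.0224) and *Hoxa10* of -2.14 (SE 0.44, adjusted p = 0.0268). The latter encode homeobox factors of the uterus. *Esr1*, the estrogen receptor α gene, was at 33.9 FPKM in HSD17B1TG and 34.9 FPKM in WT (adjusted p = 0.889). Among genes named for their absence, *Trat1*, a transmembrane adaptor of the receptor, had 0 counts in HSD17B1TG and 2 in WT, and *Themis*, a signalling protein of developing T cells, had 11 counts in HSD17B1TG and 0 in WT.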
